A study of Mus musculus with 6 samples.

Results

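The genes described here are the proteases that work outside the cell or at its surface, and the inhibitors that hold them in check. Members were taken by symbol: the Mmp, Adam, Adamts (with Adamts-like), Klk, Prss, Htra, Pcsk and Tmprss families, Furin, St14, Plat, symbols beginning with Plau, the Timp and Serpin families and Reck. The deposited table listed 66 of them among its 12151 genes: 30 metalloprotease genes, 18 serine protease genes, 13 inhibitor genes and 5 others. The others were the Adamts-like genes, the receptor gene Plaur and Pcsk1n, which encodes a convertase inhibitor and was not counted among the inhibitors. Of 249 protein-coding mouse genes whose RefSeq symbols fit the rule, these 66 were in the table; Mmp9, Plau and St14 were not listed.

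RNA came from cultured mouse glioma cells in either of 2 forms. GL261 is a mouse glioma line, here grown in medium with serum and labelled as differentiated glioma cells (passages 17, 33 and 34; the passage field of the last says 33). The mNS cells grew as neurospheres in serum-free medium with B-27, EGF, basic FGF and heparin and are labelled as glioma stem-like cells (passages 72, 77 and 85). Both media held beta-mercaptoethanol, antibiotics, HEPES and glutamine, and no genetic change or drug separates the groups in the labels. Each group had 3 libraries, each with 12534422 to 14225175 reads over the genes of the table. Values are in CPM, reads scaled to the library size and by the authors' normalisation factors (TMM), and 1 read was worth 0.0708 to 0.0773 CPM. Columns summed to 1027690 to 1037860 CPM in GL261 and to 968335 to 969269 CPM in mNS. Library values are listed below in passage order, 17, 33 and 34 for GL261 and 72, 77 and 85 for mNS. The groups differ at once in line, in medium and in passage, which cannot be told apart, and in cultures of this kind fewer cells that express a gene cannot be told apart from less RNA per cell. Beyond the passage numbers, the labels do not say whether libraries were grown independently; p-values therefore measure only the spread between these libraries, which may be technical.

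Of the cell type markers looked at, the neural progenitor and glial genes (Sox2, Nes, Olig2, Fabp7 and Gfap) were all listed, with a summed level of 1609 to 1861 CPM in GL261 and 1497 to 1923 CPM in mNS. That sum was carried mainly by Nes, and its members differed: Olig2 went from 8.54 to 437 CPM and Fabp7 from 3.24 to 89.8 CPM, Gfap went from 3.45 to 0.101 CPM and Nes from 1518 to 955 CPM (all called), while Sox2 was not called. None of 4 neuronal, 4 endothelial or 4 mast cell and lymphocyte markers was listed. Of 6 microglia and macrophage markers Csf1r and Cd68 were listed, with sums of 4.05 to 5.44 CPM in GL261 and 6.87 to 9.51 CPM in mNS, and Aif1, Cx3cr1, Ptprc and Itgam were not. Cd68 was higher in mNS, and Csf1r had 68 reads in GL261 and 2 in mNS. Of 6 fibroblast and pericyte markers Col1a1 and Pdgfrb were listed, with sums of 119 to 136 CPM in GL261 and 4.64 to 8.61 CPM in mNS, while Col1a2, Dcn, Lum and Rgs5 were not. The fibroblast and microglia sums and 4 of the 5 neural and glial genes thus moved with the groups; their part in the results below was not tested.

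Extracellular proteolysis works as a balance. Matrix metalloproteases (MMPs) cut collagens and other matrix proteins, ADAMs release the outer parts of membrane proteins, and ADAMTS enzymes cut proteoglycans such as versican; all are zinc enzymes that TIMPs bind and block to different degrees. Serine proteases such as the plasminogen activators act beside them and are trapped by serpins. In gliomas both arms are studied for their part in invasion through brain tissue, whose matrix is rich in proteoglycans and hyaluronan.

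Stem-like and serum-grown glioma cells were compared for these genes. Most ADAMTS genes were higher in mNS, whereas Timp1, Timp2, Timp3, Reck, Plat and the kallikreins were lower; MMP, ADAM and serpin genes moved both ways. Calls are limma tests with an adjusted p below 0.05 (Benjamini-Hochberg over the 12006 genes whose mean reached 1 CPM). Differences were taken in log2(CPM + 1), a scale on which the change of low genes is understated. The filter passed 64 members, and the others, Klk7 and Adamtsl2, lay below it. Of the 64, 22 were called higher and 26 lower in mNS, or 75% in all, where 32.2% and 32.1% of all tested genes were, or 64.3%. A called difference of at least 1 on the log2 scale was found for 14 members in the higher direction and 15 in the lower, against 11.3% and 8.47% of all tested genes (19.7% in both directions). The groups did not overlap for 48 members (69.9% of all tested genes), and the median difference was -0.06 over the members and -0.0027 over all genes. The classes leaned differently. Of 30 metalloproteases 15 were higher and 8 lower (median 0.38), of 17 serine proteases tested 3 were higher and 9 lower (median -0.46), and of 13 inhibitors 3 were higher and 6 lower (median -0.13). Classes were assigned by family symbol, not by activity. The metalloproteases include Adam11 (higher) and Adam23 (lower), which lack a working protease site. These are examples, and which other metalloproteases or serine proteases lack such a site was not examined. The inhibitors include Serpinf1 (lower), not an inhibitory serpin, and Serpinh1 (not called), a collagen chaperone. Whether the classes differ from each other was not tested. Counts for classes and families, here and below, are to be read beside the 32.2% and 32.1% of all tested genes.

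**Figure D1:**
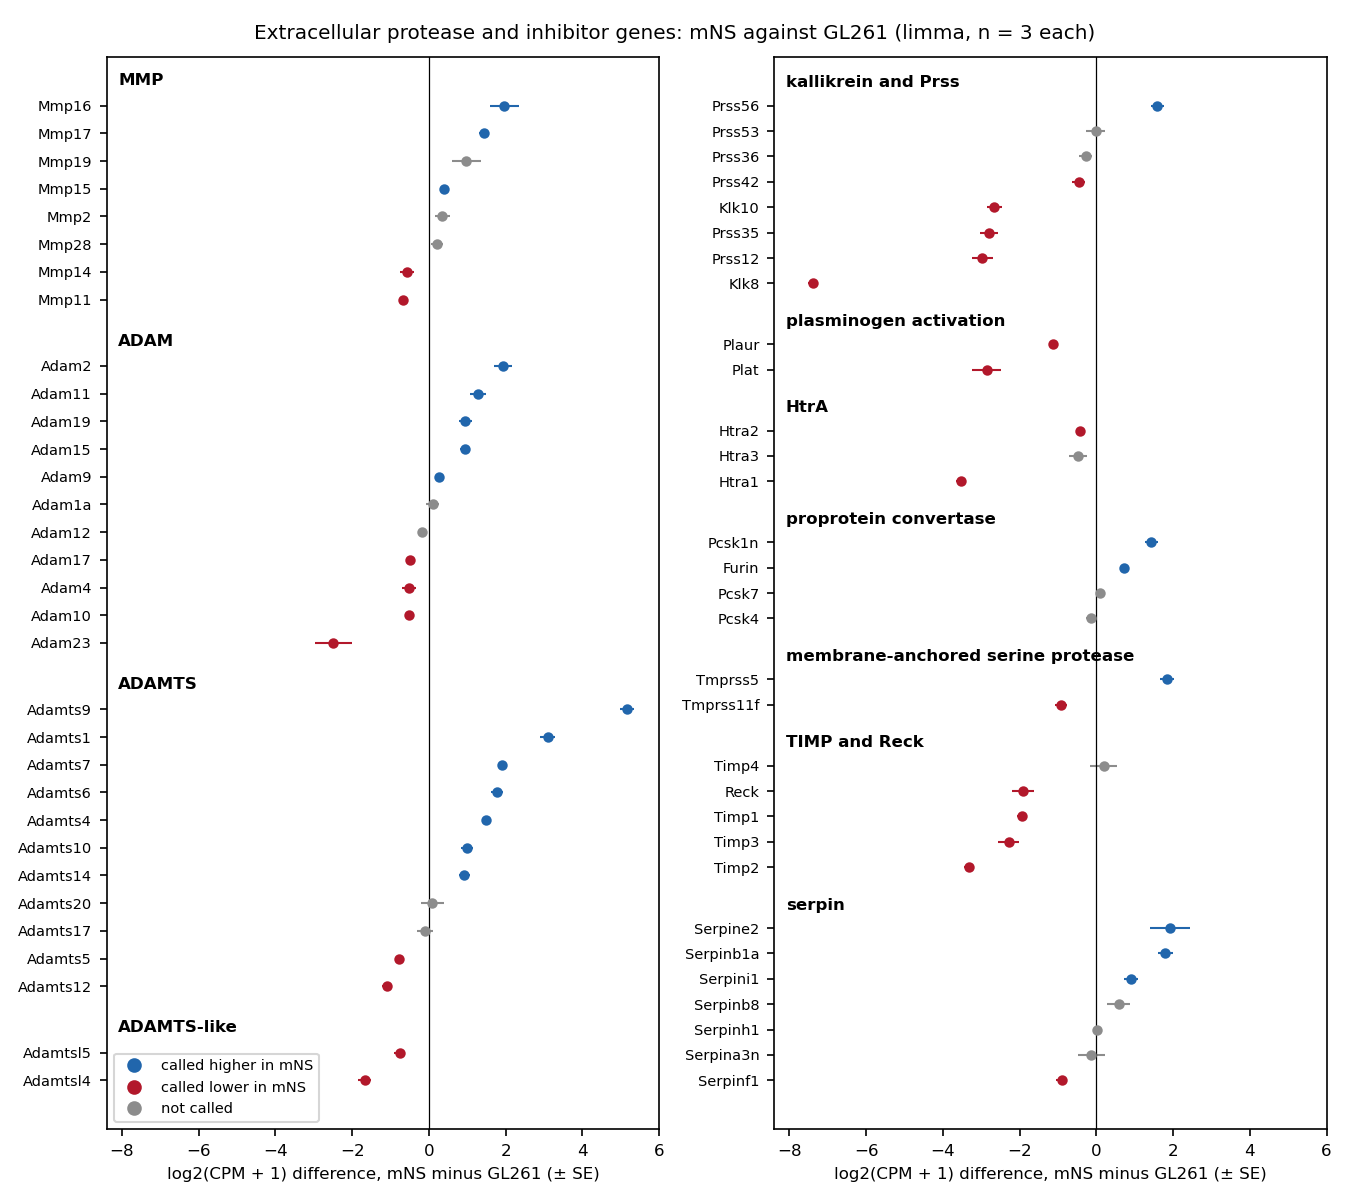
Difference in log2(CPM + 1) between mNS and GL261 (horizontal axis) for 63 of the 64 members tested, grouped by role; points are limma estimates, lines are ± SE (n = 3 libraries per group), and colours give the call at an adjusted p under 0.05. The ADAMTS genes reach furthest to the right (Adamts9 at 5.16) and Klk8 furthest to the left (-7.38), and 4 of the 5 TIMP and Reck genes lie left of 0.

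The ADAMTS genes, secreted enzymes that cut proteoglycans and other matrix proteins, held the largest rises on the log2(CPM + 1) scale. Of 11 genes 7 rose, 2 fell and 2 were not called. Adamts1, which cuts versican and aggrecan (chromosome 16, 85793827 to 85803113 in GRCm38), stood at 444, 284 and 270 CPM in GL261 and at 2315, 2941 and 3107 CPM in mNS. Every mNS library thus lay above every GL261 library, and the means were 333 ± 97.1 and 2788 ± 418 CPM (SD, n = 3 each), an 8.38-fold rise (log2 difference 3.09 ± 0.19, SE; limma adjusted p = 1.87e-06). Adamts9, an enzyme of the same versican-cutting kind (chromosome 6, 92772699 to 92943492), had 6.71, 10.5 and 12.4 CPM in GL261 and 347, 391 and 400 CPM in mNS. This was a 38.4-fold rise (log2 difference 5.16 ± 0.18; limma adjusted p = 8.04e-08), the largest fold among members with more than 3 reads in each group. The overlaps of Adamts9 with the opposite-strand genes A730049H05Rik and Gm15737 sum to 1805 bases, beside 15048 exon bases. A base covered by both partners counts for each in that sum.

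The other ADAMTS genes that rose did so by smaller folds. Adamts7, which cuts cartilage oligomeric matrix protein, had 11.5, 9.94 and 11.2 CPM in GL261 and 39.5, 45.4 and 46.7 CPM in mNS (4.03-fold, log2 difference 1.92 ± 0.10). Adamts6 had 10.7, 6.88 and 8.38 CPM in GL261 and 37.1, 29.8 and 28.2 CPM in mNS (3.67-fold). In both the groups were well apart. Adamts4, another aggrecan-cutting enzyme, rose 2.90-fold, Adamts10 2.12-fold, and Adamts14, which removes the amino-terminal propeptide of procollagen, 1.90-fold. Adamts12 fell from 72.4 ± 3.79 to 33.4 ± 6.14 CPM and Adamts5, the second well-known aggrecanase gene, from 15.9 ± 1.84 to 8.85 ± 0.245 CPM (log2 differences -1.11 and -0.77). Adamts5 lies 53060 bases from Adamts1 on the same strand of chromosome 16, and these neighbours moved in opposite directions. Adamts17 (2.55 and 2.31 CPM) and Adamts20 (14.7 and 14.9 CPM) were not called. The ADAMTS-like genes encode matrix proteins with no protease domain: Adamtsl4 fell 6.66-fold and Adamtsl5 1.74-fold, and Adamtsl2 had 70 reads in mNS against 1 in GL261 (ratio 70.6; exact Clopper-Pearson 95% interval 12.3 to 2827, counting error only).

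Because Adamts9 and Adamts1 had the largest rises on the log2(CPM + 1) scale, the 250 bases before their starts are shown (RefSeq, GRCm38.p6; chr16:85803114-85803363 and chr6:92943535-92943784, both minus strand, 5′ to 3′ along the gene). Capitals mark matches, on either strand, to the motifs of AP-1 (TGANTCA), TEAD (GGAATG), ETS (CGGAAG), the GC box bound by Sp and Klf factors (GGGCGG) and the TATA box (TATAAA).
Adamts1: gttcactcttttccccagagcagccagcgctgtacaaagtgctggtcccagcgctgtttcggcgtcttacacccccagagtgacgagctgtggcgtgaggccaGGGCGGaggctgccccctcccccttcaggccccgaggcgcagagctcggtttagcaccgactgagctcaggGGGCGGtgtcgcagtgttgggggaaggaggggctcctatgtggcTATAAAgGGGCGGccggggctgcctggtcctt
Adamts9: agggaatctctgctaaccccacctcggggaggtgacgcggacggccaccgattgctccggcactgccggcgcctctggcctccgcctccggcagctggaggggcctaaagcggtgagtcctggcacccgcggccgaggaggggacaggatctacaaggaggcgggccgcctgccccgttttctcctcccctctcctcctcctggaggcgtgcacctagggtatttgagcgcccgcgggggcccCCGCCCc
Adamts1 had 3 GC boxes and a TATA box 32 to 27 bases before its start, and Adamts9 had a single GC box 7 to 2 bases before its start. No AP-1, TEAD or ETS match was in either window. A GC box was in 32.7% of all 32851 promoter windows of this length and a TATA box in 12.4%. Of 47 members with a promoter in the table, 28 had a GC box, among them 7 of 12 called higher and 15 of 21 called lower. Members gave a single window each, whereas the 32851 windows also cover genes not listed here. These shares are thus from unlike sets, and no excess was tested. These matches are letters in a window and were not tested for binding.

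The summed CPM per kb of exon of the MMP genes was 262 ± 24.4 in GL261 and 349 ± 73.7 in mNS. These sums overlapped between the groups (1.33-fold between the means), and the genes differed by member. Of 8 genes 3 rose, 2 fell and 3 were not called, where 32.2% of all tested genes were higher and 32.1% lower. Mmp2, the secreted gelatinase A, was the most abundant per length, with 66.7% to 78.4% of the summed CPM per kb of exon of the 8 genes in every library. Its values were 766, 601 and 615 CPM in GL261 and 604, 914 and 1071 CPM in mNS, so the groups overlapped (log2 difference 0.35 ± 0.19; limma adjusted p = 0.138). The value of mNS passage 72 lay within the GL261 range; without that library the difference was 0.59 (limma adjusted p = 0.00366), and DESeq2 on all libraries also called it (adjusted p = 0.0454).

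The membrane-bound MMPs went different ways. Mmp16, a transmembrane MMP that can activate the Mmp2 proenzyme (chromosome 4, 17852893 to 18119145), had 10.4, 37.1 and 31.1 CPM in GL261 and 94.8, 92.3 and 91.5 CPM in mNS (3.54-fold, log2 difference 1.96 ± 0.38; limma adjusted p = 0.00187). The GL261 libraries were spread and the mNS libraries close together, and the groups did not overlap. Mmp17, which is held by a lipid anchor, had 35.7, 39.1 and 51.4 CPM in GL261 and 116, 110 and 114 CPM in mNS (2.69-fold). Mmp15 rose 1.32-fold, from 206 ± 12.6 to 272 ± 8.47 CPM. Mmp14, the main activator of the Mmp2 proenzyme, had 46.1, 70.3 and 79.0 CPM in GL261 and 37.1, 47.4 and 44.0 CPM in mNS. The groups overlapped, and its fall (log2 difference -0.56 ± 0.19; limma adjusted p = 0.0261) was not called without GL261 replicate 2 or 3 or mNS replicate 1 (adjusted p of 0.0905, 0.0966 and 0.0826), nor with columns rescaled to a common sum (0.0509). Of the secreted members, Mmp11 had 13.9, 12.3 and 15.2 CPM in GL261 and 7.85, 8.97 and 8.14 CPM in mNS, a fall of 1.66-fold without overlap. Mmp28 was not called (5.68 and 6.66 CPM). Mmp19 had 4.56 ± 1.92 and 10.3 ± 5.04 CPM (log2 difference 0.98 ± 0.39; limma adjusted p = 0.0520) and passed the threshold in edgeR's quasi-likelihood test (0.0396) and in DESeq2 (0.00853).

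ADAM genes changed mostly by less than 2-fold where they were abundant. Of 11 genes 5 rose, 4 fell and 2 were not called. The widely used sheddases were lower in mNS: Adam10, which cuts Notch and cadherins among others, had 181, 170 and 151 CPM in GL261 and 130, 114 and 104 CPM in mNS (1.44-fold lower, log2 difference -0.53 ± 0.10; limma adjusted p = 0.00151). Adam17, the TNF-alpha converting enzyme that also releases EGF receptor ligands, had 215, 216 and 213 CPM in GL261 and 135, 160 and 165 CPM in mNS (1.40-fold lower, log2 difference -0.49 ± 0.08). The groups did not overlap for either. Adam15 and Adam19 rose 1.91-fold each, to 104 ± 4.93 and 74.8 ± 5.58 CPM in mNS, and Adam9, the most abundant ADAM per kb of exon, had 186, 207 and 191 CPM in GL261 and 227, 247 and 232 CPM in mNS (1.21-fold higher). Adam15 had 47.3, 51.6 and 64.9 CPM in GL261 and Adam19 had 53.0, 33.3 and 31.4 CPM, in each case below every mNS library. Adam12 was not called (143 ± 15.9 and 127 ± 8.86 CPM).

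Adam23 and Adam11 lack a working protease site. Adam23, a neuronal surface protein that binds LGI proteins, had 16.1, 3.06 and 3.61 CPM in GL261 and 0.377, 0.155 and 0.142 CPM in mNS (log2 difference -2.49 ± 0.48; limma adjusted p = 0.00183). Its 33.8-fold fall was 14.9-fold without GL261 passage 17, the high library, and 51.3-fold without mNS passage 72, with only 9 reads in the mNS libraries. Its relative Adam11 rose from 2.47 ± 0.814 to 7.31 ± 1.29 CPM (2.96-fold), with 2.46, 3.29 and 1.66 CPM in GL261 and 7.17, 8.66 and 6.09 CPM in mNS. Of the genes best known from testis and sperm, Adam2 had 122 reads in mNS against 1 in GL261 (ratio 123, exact 95% interval 21.7 to 4898). Adam4 fell by 0.52 on the log2 scale from 2.27 ± 0.225 CPM, a call that DESeq2 and 5 of the 6 fits without a library did not make. Adam1a (3.57 and 3.93 CPM) was not called. Its overlaps with other genes on its strand (Mapkapk5 and Gm42878) sum to 6584 bases, beside 7508 exon bases, so its reads are uncertain. In that sum a base covered by both partners counts for each.

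The metalloprotease inhibitors were lower in mNS, with 1 exception. Of the TIMP genes and Reck 4 of 5 fell. Timp2, which blocks MMPs and with Mmp14 takes part in activating the Mmp2 proenzyme (chromosome 11, 118301069 to 118355740), had 196, 211 and 225 CPM in GL261 and 22.3, 22.0 and 16.2 CPM in mNS. This 10.4-fold fall (log2 difference -3.33 ± 0.12; limma adjusted p = 1.08e-07) left a wide gap between the groups. Timp3, which binds to the matrix and also blocks ADAM17 and ADAMTS enzymes (chromosome 10, 86300372 to 86349506), had 1623, 752 and 752 CPM in GL261 and 168, 221 and 210 CPM in mNS (5.22-fold lower, log2 difference -2.29 ± 0.27; limma adjusted p = 0.000109). GL261 passage 17 was the high library, and the others of that group also lay above every mNS library. Timp1 (chromosome X, 20870166 to 20874735) had 102, 115 and 110 CPM in GL261 and 22.7, 29.3 and 30.9 CPM in mNS (3.94-fold lower, log2 difference -1.95 ± 0.12). Reck, a membrane-anchored inhibitor of MMPs, had 6.63, 17.3 and 13.4 CPM in GL261 and 2.79, 2.24 and 2.05 CPM in mNS (5.28-fold lower). In both the groups did not overlap.

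Timp4 depended on a single library. Its values were 12.7, 37.4 and 38.4 CPM in GL261 and 28.5, 28.5 and 34.4 CPM in mNS, which overlap (log2 difference 0.19 ± 0.36; limma adjusted p = 0.667). Without GL261 passage 17 the difference turned to -0.31 and was called (limma adjusted p = 0.0309). Synapsin genes on the opposite strand share exon bases with these inhibitors: Syn3 shares 1733 of the 8144 of Timp3, and Syn2 shares 90 of the 5894 of Timp4. Syn3 was not listed in the table, and Syn2 had 0.522, 0.972 and 0.361 CPM in GL261 and 5.21, 4.18 and 3.19 CPM in mNS.

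**Figure D2:**
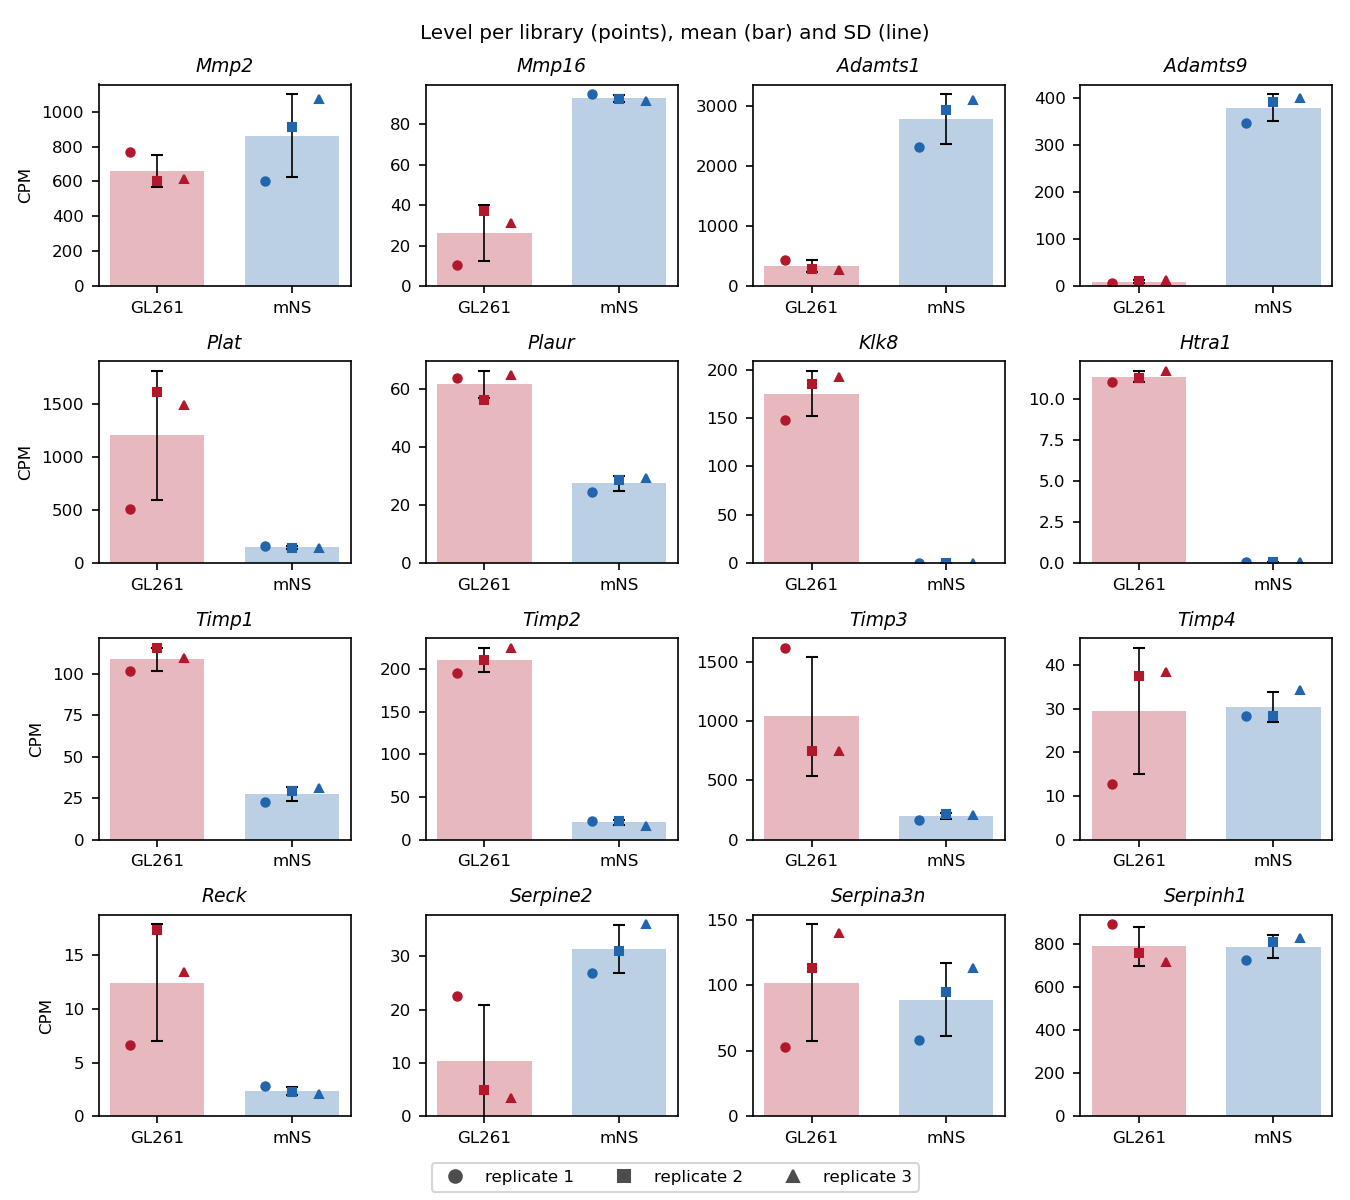
CPM (vertical axis, from 0, own scale in each panel) of 16 members in the 3 GL261 and 3 mNS libraries; points are libraries by replicate, bars are means and lines are ± SD, which for Serpine2 in GL261 runs below 0 and ends at the axis. Adamts1, Adamts9 and Mmp16 are higher and Plat, Plaur, Klk8, Htra1, Timp1, Timp2, Timp3 and Reck lower in every mNS library, whereas Mmp2, Timp4, Serpina3n and Serpinh1 overlap between the groups.

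Set per kb of annotated exon, so that genes can be added and compared, the family sums show where the weight lay. The 11 ADAMTS genes summed to 86.5 ± 19.0 CPM per kb in GL261 and 592 ± 80.3 in mNS, of which Adamts1 made up 68.0% to 77.3% in GL261 and 87.2% to 89.8% in mNS. The 4 TIMP genes summed to 310 ± 48.9 CPM per kb in GL261 and 66.0 ± 8.03 in mNS. Thus the ADAMTS sum was 6.84 times as high in mNS and the TIMP sum 4.69 times as high in GL261, and neither sum overlapped between the groups. The MMP sum (262 ± 24.4 and 349 ± 73.7 CPM per kb), the ADAM sum (142 ± 5.27 and 145 ± 3.29) and the serpin sum (403 ± 16.2 and 391 ± 39.6) overlapped. Most of the serpin sum was Serpinh1, the gene of a collagen chaperone (323 ± 37.4 and 323 ± 21.9 CPM per kb). The serpin sum thus says little about serpins that inhibit proteases. The ratio of Adamts1 to Timp3 in CPM per kb was 0.421, 0.579 and 0.551 in GL261 and 21.2, 20.4 and 22.7 in mNS. The ratio of Mmp2 to Timp2 was 4.52, 3.29 and 3.16 in GL261 and 31.3, 47.9 and 76.3 in mNS, and that of Adam17 to Timp3 was 0.151, 0.327 and 0.323 against 0.917, 0.825 and 0.893. All 3 ratios were higher in every mNS library than in any GL261 library. The pairs were formed with the differences of their genes known, so the ratios describe those differences and carry no test. Adam17 itself fell, and its ratio rose through Timp3. Mmp2 was not called, whereas Timp2 fell 10.4-fold. Adamts1 and Adam17 were both set against Timp3, so their ratios are not separate results. All are ratios of RNA, not of protein or activity.

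**Figure D3:**
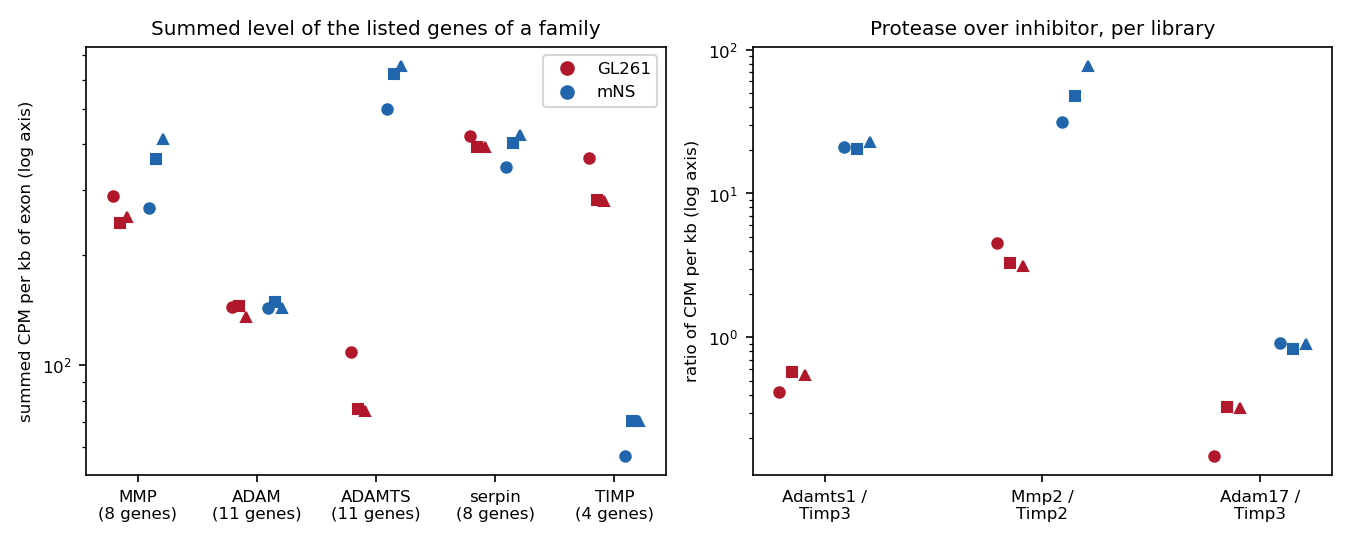
Left, summed CPM per kb of exon (log axis) of the listed genes of 5 families in each library; right, ratio of a protease to an inhibitor gene in CPM per kb (log axis). Red points are GL261 and blue points mNS, with circles, squares and triangles for replicates 1 to 3; the ADAMTS sum is higher and the TIMP sum lower in all mNS libraries, and the MMP, ADAM and serpin sums overlap.

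Serine proteases were mostly lower in mNS, and the 3 listed kallikreins had no more than 2 reads each there. Of 17 serine protease genes tested 3 rose and 9 fell. Klk8 (neuropsin), a trypsin-like protease expressed in brain, had 148, 186 and 192 CPM in GL261 and 0.0755, 0.0773 and 0 CPM in mNS, where only 2 reads were counted; the ratio of reads has a 95% counting interval of 979 to 29206. Klk10 had 3.65, 6.65 and 6.07 CPM in GL261 and no read in mNS, which is at least 24.4-fold lower against 3 reads per library (log2 difference -2.66 ± 0.21; limma adjusted p = 8.13e-06). Klk7, a chymotrypsin-like protease, had 1.42, 1.42 and 1.30 CPM in GL261 and no read in mNS, at least 6.17-fold lower; without the filter limma gave an adjusted p of 7.95e-05. All 3 kallikreins were thus seen in every GL261 library. They are neighbours on chromosome 7, on the plus strand: Klk10 from 43781035 to 43785410, Klk8 from 43797577 to 43803826 and Klk7 from 43811294 to 43816359. Of the other kallikrein genes between Klk14 and Klk15 none was listed. The noncoding gene 2310002F09Rik shares 382 of the 1540 exon bases of Klk8 on the opposite strand; it had 8.05, 7.70 and 8.31 CPM in GL261 and 0 reads in mNS. No source used here gives the strand setting of the counting, so the reads of these overlapping genes cannot be told apart.

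The 250 bases before the starts of these co-falling neighbours are shown for comparison with those of Adamts1 and Adamts9 (RefSeq starts, GRCm38.p6, plus strand; chr7:43780804-43781053, chr7:43797327-43797576 and chr7:43811044-43811293; capitals as above). The RefSeq starts of Klk10 and Adamts9 differ from the GENCODE starts given with the genes, and the last bases of the Klk10 window lie inside the GENCODE gene.
Klk10: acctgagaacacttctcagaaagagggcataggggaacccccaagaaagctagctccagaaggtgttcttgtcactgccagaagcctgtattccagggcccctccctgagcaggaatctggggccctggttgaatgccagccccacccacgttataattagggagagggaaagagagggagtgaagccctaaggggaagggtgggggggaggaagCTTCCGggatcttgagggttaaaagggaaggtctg
Klk8: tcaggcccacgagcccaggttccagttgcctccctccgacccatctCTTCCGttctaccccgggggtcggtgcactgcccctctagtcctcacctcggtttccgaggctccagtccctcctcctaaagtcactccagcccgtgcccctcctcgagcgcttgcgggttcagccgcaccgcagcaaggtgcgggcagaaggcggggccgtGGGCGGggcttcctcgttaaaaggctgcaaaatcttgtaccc
Klk7: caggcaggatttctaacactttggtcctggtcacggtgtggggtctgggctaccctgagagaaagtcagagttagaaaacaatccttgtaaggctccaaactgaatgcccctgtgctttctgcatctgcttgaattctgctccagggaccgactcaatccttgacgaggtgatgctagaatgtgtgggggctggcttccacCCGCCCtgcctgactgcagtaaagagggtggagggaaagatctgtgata
Klk10 had an ETS match 35 to 30 bases before its start, Klk8 had an ETS match and a GC box, and Klk7 had a GC box 49 to 44 bases before its start. None of the 5 motifs was in all 3 windows, and an ETS match was in 13.6% of all promoter windows.

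Among the other genes classed by symbol as serine proteases, Plat, Prss12, Prss35 and Htra1 held the largest falls. Plat, tissue plasminogen activator, which turns plasminogen into plasmin (chromosome 8, 22757727 to 22782844), had 507, 1616 and 1494 CPM in GL261 and 161, 143 and 137 CPM in mNS. GL261 passage 17 was the low library of its group and still lay above all mNS libraries (8.20-fold lower in mNS, log2 difference -2.86 ± 0.38; limma adjusted p = 0.000203). Plaur, the receptor for urokinase, had 63.7, 56.1 and 64.5 CPM in GL261 and 24.5, 28.6 and 29.1 CPM in mNS (2.24-fold lower, log2 difference -1.14 ± 0.10). Prss12 (neurotrypsin), which cuts agrin at synapses, had 51.2, 29.3 and 35.0 CPM in GL261 and 6.27, 2.94 and 3.12 CPM in mNS (9.38-fold lower), and Prss35 had 13.4, 7.62 and 6.72 CPM against 0.377, 0.619 and 0.283 CPM. In all 4 genes the groups did not overlap. Htra1, a secreted protease that degrades matrix proteins, had 11.0, 11.3 and 11.7 CPM in GL261 and a single read in each mNS library. This is a ratio of 152, exact 95% interval 51.8 to 742 (log2 difference -3.52 ± 0.13; limma adjusted p = 1.06e-07). Htra2, a mitochondrial member of that family and so not an extracellular protease, had 66.1, 77.4 and 84.9 CPM against 52.2, 54.2 and 62.1 CPM (1.36-fold lower), and Htra3 was not called (11.4 and 8.20 CPM).

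The serine proteases that rose were Furin, Tmprss5 and Prss56. Furin, the convertase that activates MT-MMPs, ADAMs and ADAMTS enzymes in the Golgi, had 15.1, 15.8 and 16.8 CPM in GL261 and 25.9, 28.5 and 26.6 CPM in mNS (1.70-fold higher, log2 difference 0.73 ± 0.09; limma adjusted p = 0.000156). The groups did not overlap. Tmprss5 (spinesin), a membrane-anchored protease of the nervous system, rose from 0.494 ± 0.193 to 4.37 ± 0.887 CPM and Prss56 from 0.983 ± 0.346 to 4.90 ± 0.531 CPM. Pcsk1n, which encodes proSAAS, an inhibitor of a prohormone convertase, had 2.31, 1.87 and 3.18 CPM in GL261 and 6.79, 8.58 and 9.49 CPM in mNS (3.38-fold higher). The convertase genes Pcsk7 and Pcsk4 were not called; Pcsk7 had 38.0, 34.7 and 39.2 CPM in GL261 and 42.5, 38.0 and 39.4 CPM in mNS (log2 difference 0.10 ± 0.08). Tmprss11f fell, with 4.70, 6.58 and 6.72 CPM against 2.42, 2.94 and 2.62 CPM. Prss42 fell by 0.46 on the log2 scale, a call that several alternatives lost, and Prss36 and Prss53 were not called; Prss53 shares 1636 of its 2134 exon bases with the gene model Gm21974 on its strand.

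The serpins went both ways: of 8 genes 3 rose, 2 fell and 3 were not called, where 32.2% of all tested genes were higher and 32.1% lower. Serpine2, which encodes protease nexin-1, a thrombin and plasminogen activator inhibitor made by glia, had 22.6, 4.86 and 3.54 CPM in GL261 and 27.0, 31.1 and 36.0 CPM in mNS. The groups did not overlap, but GL261 passage 17 lay near the mNS range: the fold was 3.03 with all libraries and 7.46 without it (log2 difference 1.91 ± 0.52; limma adjusted p = 0.0114), and DESeq2 did not call the gene (adjusted p = 0.0763). Serpini1 (neuroserpin), an inhibitor of tissue plasminogen activator in brain, had 5.29, 4.78 and 3.68 CPM in GL261 and 12.1, 9.20 and 7.36 CPM in mNS (2.08-fold higher). The groups did not overlap, and both serpins rose where Plat, a protease they inhibit, fell.

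Serpinf1, which encodes the secreted factor PEDF and is not an inhibitory serpin, had 19.9, 15.2 and 18.9 CPM in GL261 and 7.78, 9.20 and 10.4 CPM in mNS (1.97-fold lower). Serpinb1a, an inhibitor of neutrophil proteases, rose from 0.294 ± 0.142 to 3.53 ± 0.874 CPM. Serpinh1, the collagen chaperone Hsp47, was the most abundant serpin gene per length and had 893, 758 and 718 CPM in GL261 and 729, 808 and 831 CPM in mNS (log2 difference 0.0034 ± 0.09; limma adjusted p = 0.976). Serpina3n had 52.6, 113 and 140 CPM in GL261 and 58.5, 94.9 and 113 CPM in mNS, and Serpinb8 25.9 ± 9.60 and 38.0 ± 9.79 CPM; neither was called. Both Serpina3n and Serpinb1a belong to clusters of close copies in the mouse, so their reads may be shared with other members.

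Within GL261, passage 17 stood apart from passages 33 and 34 for many of these genes. Of 53 members with at least 5 CPM in a GL261 library, 11 (20.8%) had a passage 17 value at least 2-fold above or below the mean of the later passages and outside both, where 1.43% of 10388 genes did. The rule was chosen after values were seen, and a single library at passage 17 allows no test. The high genes were Serpine2 (5.38-fold), Adam23 (4.82-fold), Adamts20 (2.25-fold) and Timp3 (2.16-fold). The low ones were Mmp16 (3.27-fold), Plat (3.07-fold), Timp4 (2.97-fold), Serpina3n (2.40-fold), Reck (2.32-fold), Mmp19 (2.28-fold) and Serpinb8 (2.12-fold). By the same rule GL261 passages 33 and 34 each had 1 member apart, Adam23 and Serpine2 (0.25% of genes for each). Both were set against a mean that the high passage 17 value raised. Adam23 had 16.1, 3.06 and 3.61 CPM in passage order, and Serpine2 had 22.6, 4.86 and 3.54 CPM. In mNS, passage 72 had 2 of 51, Mmp19 and Prss12 (1.17% of genes), and passages 77 and 85 had none (0.0569% and 0.531%). Without GL261 passage 17, 22 members were called higher and 25 lower. Passage and library cannot be told apart here.

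**Figure D4:**
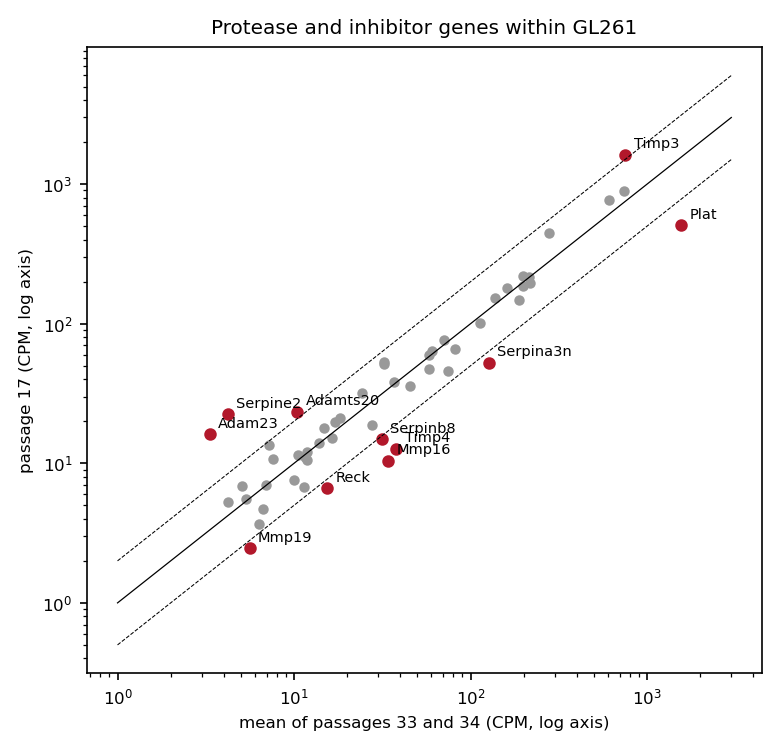
CPM at GL261 passage 17 (vertical log axis) against the mean of passages 33 and 34 (horizontal log axis) for the 53 members with at least 5 CPM in a GL261 library; the solid line is equality and the dashed lines are 2-fold. The 11 labelled red genes lie at or beyond the dashed lines, with Serpine2 and Adam23 above and Plat, Mmp16 and Timp4 below.

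Other genes of extracellular proteolysis were read from a list of 89 regulators, receptors, cofactors and further peptidases, of which 44 were in the table. All 44 were tested: 20 were higher and 15 lower in mNS, where 32.2% and 32.1% of all tested genes were, with a median difference of 0.20 (-0.0027 over all genes). The largest rise with at least 5 CPM was that of Cst6, an inhibitor of cathepsins and legumain, from 11.6 ± 1.68 to 137 ± 3.64 CPM (log2 difference 3.46 ± 0.10; limma adjusted p = 3.72e-08). Ece1, the endothelin-converting metalloprotease, rose from 11.5 ± 1.51 to 79.3 ± 11.6 CPM. Tspan33, a tetraspanin partner of Adam10, rose from 0.987 ± 0.502 to 6.65 ± 0.980 CPM and the cathepsin gene Ctso from 2.67 ± 2.09 to 7.71 ± 0.989 CPM (2.89-fold, and 5.26-fold without GL261 passage 17). Rises were thus seen in an inhibitor, a peptidase, a sheddase partner and a cathepsin.

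The largest falls were those of Anxa2, Wfdc1, Rhbdf1 and Cst3. Anxa2, which binds plasminogen and tissue plasminogen activator at the cell surface, fell from 2194 ± 28.4 to 379 ± 47.5 CPM (log2 difference -2.54 ± 0.09; limma adjusted p = 8.31e-08), and its partner S100a10 from 342 ± 6.56 to 181 ± 36.6 CPM. Rhbdf1, which encodes iRhom1, a carrier of Adam17 to the cell surface, fell from 210 ± 8.95 to 39.7 ± 2.19 CPM. Its relative Rhbdf2 rose at about 1 to 2 CPM (0.981 and 1.97), and the partner Frmd8 was not called. Cst3, cystatin C, a secreted inhibitor of cathepsins, fell from 194 ± 18.4 to 68.8 ± 5.25 CPM, and Wfdc1, a secreted protein with an inhibitor-type domain, from 5.49 ± 1.66 to 0.0960 ± 0.108 CPM. Leaving out mNS passage 85 moved that fold from 57.2 to 145. Lrp1, the receptor that clears protease and inhibitor complexes, fell (log2 difference -0.82), and the thrombin receptor gene F2r rose (0.87). Of 7 cathepsin genes 3 rose and 2 fell, and of 6 genes for plasminogen binding and coagulation at the surface 3 rose and 3 fell. Among all tested genes 32.2% were higher and 32.1% lower.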

How the data were processed

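Ribosomal RNA was removed, stranded libraries were made and single reads were sequenced for 3 GL261 and 3 mNS samples, per the labels' protocols and design text. Tools listed in the submitters' processing notes, with no role, are edgeR 3.4.2, HTSeq 0.5.3p9 and TopHat2 (version 2), and the build is mm10. The deposited values are a normalised signal per gene and library, CPM scaled by the authors with TMM factors, per the labels' design text. The filter on low genes and the strand setting of the counting are not given in the sources used here. All values were whole multiples of 1 read (100% within 0.001 reads), which gave back 12534422 to 14225175 reads per library.

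Groups were compared with limma 3.58.1 (R 4.3.3; trended eBayes, two-sided) after log2(CPM + 1), pseudocount 1, on 12006 genes averaging at least 1 CPM, with Benjamini-Hochberg adjustment. Count tests on the recovered reads were alternatives: edgeR 4.0.16 (quasi-likelihood) called 3840 genes higher and 3811 lower, and DESeq2 1.42.0 called 3714 and 3639. Further alternatives were other pseudocounts, filters, scalings and thresholds, limma without trend, and leaving out each library. The fits were tested on simulated data. Folds are ratios of group means; with 1 to 3 reads in a group an exact 95% interval is given, and with none the bound uses 3 reads per library. Intervals cover counting error only. The values of 1 member are not reported here. Values are given by library for the 4 largest called differences of each role with at least 5 CPM, its most abundant member and 19 fixed genes; other members were added after their values were seen. Regulators named are the 4 largest in each direction, others being added likewise. Members, lists and rules were chosen with earlier results of these data known. Gene positions and exon lengths come from GENCODE M21 (GRCm38, which mm10 is), and promoters from RefSeq (GRCm38.p6). Python 3.11.15 with scipy 1.17.1, numpy 2.4.6, pandas 2.3.3 and matplotlib 3.10.9 made the tables and figures.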

Additional observations from a re-analysis of the deposited data

How the results depend on the processing

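Under 17 alternatives, members called higher numbered 17 to 24 and members called lower 20 to 27, against 22 and 26. Of 48 called members 44 kept their call under every alternative that tested them and none changed direction; Mmp14, Prss42, Adam4 and Serpine2 lost it under at least 1. Leaving out 1 library each gave 22 to 24 higher and 23 to 25 lower; by class these ranges were 15 to 17 and 6 to 7 for metalloproteases, 3 and 8 to 9 for serine proteases, and 3 and 6 to 7 for inhibitors. With a mean of at least 5 CPM required, 1 serine protease was called higher in place of 3, since fewer genes were tested. Over all genes the columns rescaled to a common sum gave 4456 higher and 3198 lower, where the main scaling gave 3865 and 3849. No called member changed direction under that scaling, and Mmp14 and Prss42 lost their calls.

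Of 16 uncalled members 5 were called under at least 1 alternative (Mmp2, Mmp19, Adam12, Htra3 and Timp4). Signs turned only for uncalled members. Leaving out 1 library each gave log2 differences of -0.065 to 0.20 for Adam1a, -0.26 to 0.028 for Adamts17, -0.13 to 0.46 for Adamts20, -0.28 to 0.11 for Prss53, -0.31 to 0.45 for Timp4, -0.55 to 0.15 for Serpina3n and -0.062 to 0.095 for Serpinh1. Prss53 also turned with columns rescaled to a common sum (0.028), in edgeR (0.023) and in DESeq2 (0.034), and Serpinh1 with libraries centred on their median gene (-0.021). Apart from Timp4 none of these passed the threshold. The cause of these turns was not tested. Genes at a few reads (Klk7, Klk10, Klk8 and Htra1 in mNS, Adam2 and Adamtsl2 in GL261) have imprecise folds. No paired analysis was possible because the labels give the groups no shared replicate numbers.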
